A study of Bos taurus with 31 samples.

Results

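Levels of 100 genes in mammary epithelium of the same dairy cows kept much of their order between animals from the virgin stage to lactation. They were chosen by the rank correlation of their levels between the stages, as the 100 highest of 7651 genes of sufficient level. Some of them were high or low by whole classes of animals, such as the antigen-presenting gene BOLA-DQA5 and the receptor phosphatase PTPRT. Many of the others moved together over the animals, which pairs of all genes also did, somewhat less often. Among the 100 were a set of 30 genes and a set of 13 genes that holds genes of endothelium and matrix.

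Gene expression had been measured by RNA sequencing in epithelial organoids, the clusters of mammary epithelium left after biopsy tissue was digested with collagenase, trypsin and hyaluronidase and spun until few single cells were seen. Biopsies came from dairy cows at 14 months of age, as virgins, and again at 40 to 60 days of lactation, and 15 cows gave a library at both stages, so that 15 virgin and 15 lactating libraries were used here. A lactating library of 1 further cow, which had no virgin library, entered only as an alternative. Breed, parity and genotype are not given in the labels, and all lactating samples were taken later in the animals' lives, so stage cannot be told apart from age, calving or time of sampling.

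Levels are given as CPM, read counts scaled to a common library total, each total being multiplied by its TMM factor, a correction for libraries in which a few genes take many of the reads. Of 13407 distinct counted loci, 7651 had a mean of at least 5 CPM in both stages. For each of these genes, Spearman's rho was computed over the 15 animals between the virgin and the lactating log2 CPM, and the 100 genes with the highest rho were taken. Because the genes were selected on rho, it is given below as a description and was not tested.

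As background, the level of a gene in a tissue sample differs between individuals through inherited variants in and around the gene, through copy number, through the state of the animal and through the mix of cell types in the sample. The mammary epithelium is rebuilt in pregnancy, when secretory alveoli form and their luminal cells begin to make milk, while ducts, myoepithelial cells and the surrounding vessels and stroma remain. In such bulk samples, fewer cells of a type and less RNA per cell cannot be told apart.

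With each locus counted once, total counts were 12477568 to 38794104 in the virgin and 17637505 to 45478555 in the lactating libraries, and TMM factors were 0.902 to 1.53 and 0.591 to 1.20. The epithelial genes EPCAM, KRT8, KRT18 and CDH1 were detected in every library, with EPCAM at 192 to 795 CPM in the virgin and 144 to 675 CPM in the lactating libraries. Between an animal's virgin and lactating libraries, total counts had a Pearson's r of -0.21 and a Spearman's rho of -0.04, and TMM factors an r of -0.03 and a rho of 0.00 (two-sided permutation tests with 100000 resamples, Benjamini-Hochberg adjusted p = 0.995 for each). Without the 2 animals farthest from the virgin median r was 0.11 and -0.14.

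The 100 genes lay at the upper end of a distribution of rho shifted above that of shuffled pairs. Over all 7651 genes the median rho was 0.22 (quartiles 0.03 and 0.39), and 78.0% of the genes were above 0. Among the 100 genes rho was 0.72 to 0.91 with a median of 0.76, and 20 of them had a rho of 0.8 or more. Pearson's r of the same values had a median of 0.72 and ranged from 0.29 to 0.97 over the 100 genes, so for some the ranks agreed far better than the distances. When each virgin library was set against the lactating library of another animal, in 100 shuffles, the median rho over all genes was -0.15 to 0.11 and 29.4% to 64.7% of the genes were above 0, with a median of 46.5%.

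A rho of the lowest member or above was reached by 104 genes (1.36% of the genes) with the true pairs and by 0 to 66 genes, with a median of 6, when pairs were shuffled. A rho of 0.8 or more was reached by 0 to 16 genes in the shuffles, with a median of 1. The highest single rho in a shuffle was 0.69 to 0.91, so a rho of the size seen in the 100 genes also arose for single genes in wrongly paired animals. At the edge of the list 9 genes were tied at a rho of 0.72. Of these, 5 were taken, among them PDCD7 and ARMC1 at ranks 99 and 100, and 4 were left out, among them FILIP1 and FAM168A at the next ranks.

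**Figure D1:**
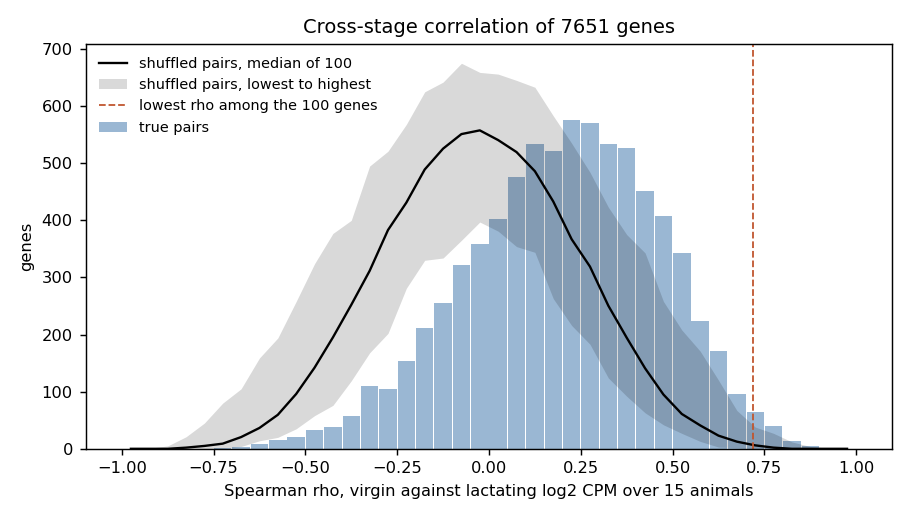
Number of genes (vertical axis) by Spearman's rho between virgin and lactating log2 CPM over 15 animals (horizontal axis) for 7651 genes. Bars are the true pairs, the black line and grey band are the median and the range of 100 shuffles, and the dashed line marks the lowest rho of the 100 genes (0.72). The true distribution lies to the right of the shuffled median, with a median rho of 0.22.

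The 100 genes belonged to many classes and no class held most of them. By their known roles, 11 act in transcription and chromatin, 10 are metabolic enzymes, and 10 are growth factors or genes of endothelium and matrix. Signalling enzymes and G proteins gave 8 genes, membrane traffic 7, protein synthesis, folding and ubiquitin 7, membrane transport 6, surface adhesion and guidance 6, RNA processing 5, antigen presentation 2 and other roles 16. The remaining 12 had only an Ensembl identifier.

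CALCOCO1, a coiled-coil protein that acts as a receptor in autophagy of the endoplasmic reticulum, had the highest rho (0.91). Its level was 8.38 CPM in the lowest, 21.3 in the median and 71.3 in the highest virgin library, and 27.6, 38.6 and 65.2 CPM in the lactating libraries. The 2 ranges overlapped, and the spread between animals was wider in the virgin libraries (SD of log2 CPM 0.88) than in the lactating ones (0.35). AIFM2, a coenzyme Q reductase that protects membranes from lipid peroxidation, had a rho of 0.86 with levels of 1.96 to 12.7 CPM in the virgin and 5.29 to 10.9 CPM in the lactating libraries. When TMM factors were not used, rho was 0.65 for CALCOCO1 and 0.35 for AIFM2. It was 0.28 and 0.26 with the first principal component of each stage removed.

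A pair of zinc transporters was at ranks 3 and 4. SLC30A5, which carries zinc into the secretory pathway, ranged from 28.9 CPM through a median of 82.9 to 129 CPM in the virgin libraries and from 38.1 through 48.0 to 65.1 CPM in the lactating libraries (rho 0.88). SLC39A10, which carries zinc into the cell, ranged from 6.89 through 23.0 to 30.5 CPM in the virgin and from 6.28 through 9.46 to 11.7 CPM in the lactating libraries (rho 0.86). Both were lower in lactation in 14 of 15 animals while the animals' order was largely kept at these settings. The lowest virgin level of both genes was in the same library. There the log2 CPM of SLC39A10 was 2.79, against 3.97 or more in the other virgin libraries. Without TMM factors rho was 0.46 for SLC30A5 and 0.45 for SLC39A10. With the first principal component of each stage removed it was 0.375 and 0.25.

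The list of solute carriers held 134 of the 7651 genes, and 4 of them (2.99%) were among the 100, against 1.31% of all genes. Beside the pair of zinc transporters these were SLC29A3, a nucleoside transporter of lysosomes (rho 0.79), and SLC7A11, which exchanges cystine for glutamate (rho 0.73). SLC29A3 varied little, with 3.12 to 7.16 CPM in the virgin and 3.69 to 8.35 CPM in the lactating libraries. SLC7A11 varied widely in the virgin libraries, from 0.957 through 10.2 to 66.7 CPM, and much less in the lactating ones, from 2.00 through 5.83 to 9.53 CPM.

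Other genes of the first 20 ranks had varied roles. They were PPP4R3B, a subunit of protein phosphatase 4 (rho 0.86), the sorting nexin SNX16 (0.84), the HSP90 co-chaperone CHORDC1 (0.84), the phosphatase PTP4A1 (0.82), the exosome ribonuclease DIS3 (0.82), PIGW, which builds anchors for surface proteins (0.81), SDCCAG3 (0.81), ZMYM1 (0.81) and the centromere protein CENPC (0.80). ITGA5, the alpha chain of a fibronectin receptor, had a rho of 0.83, and PXDC1 one of 0.82. The counted locus of PPP4R3B is also listed as PNPT1, so its counts cannot be assigned to 1 of these genes. Of the list of zinc finger and KRAB factors, 3 of 128 genes (2.34%, against 1.31% of all genes) were among the 100: ZNF583 (0.81), ZNF148 (0.77) and ZNF638 (0.76).

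**Figure D2:**
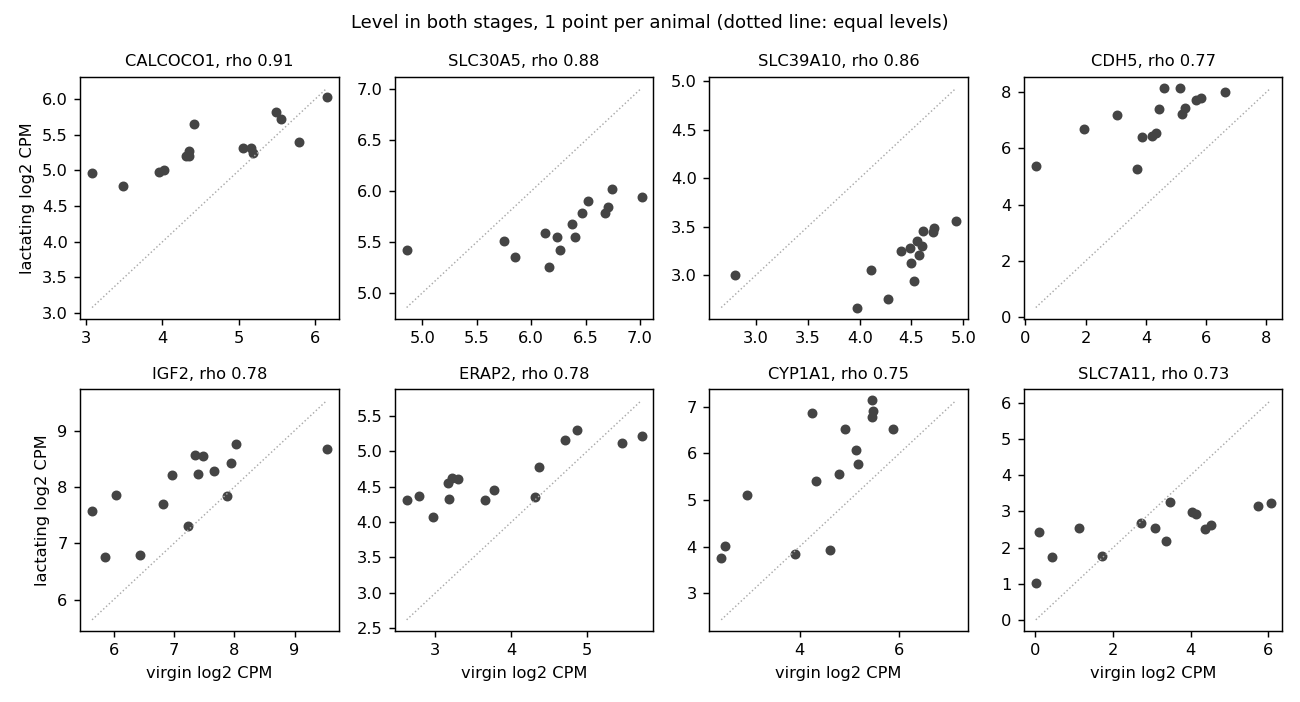
Virgin (horizontal axis) against lactating (vertical axis) log2 CPM for 8 of the 100 genes, with 1 point per animal and a dotted line of equal levels. Points of SLC30A5 and SLC39A10 lie below the line in 14 of 15 animals, those of CDH5 lie above it in 15 of 15, and the horizontal range of SLC7A11 is wider than its vertical range.

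In 8 of the 100 genes the animals fell into a low and a high class that did not touch, with the same animals in each class at both stages. A gene was counted this way when the widest gap between neighbouring animals was over 1 on the log2 CPM scale in both stages and the same animals lay below it. Over all 7651 genes, 12 (0.157%) met this description. The 8 were BOLA-DQA5, PTPRT and 6 genes without a symbol. The 100 genes had been selected for kept order, so their share is a description. Across such classes a rho over all animals mostly restates the classes, and rho within each class of at least 6 animals is given instead.

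BOLA-DQA5 encodes an alpha chain of the MHC class II molecules that present peptides to T cells, and the number of DQ genes differs between cattle haplotypes. In 6 animals it had 0 to 4 counts in the virgin library (0 to 0.110 CPM) and 0 to 12 counts in the lactating library (0 to 0.539 CPM). Of these, 2 virgin and 5 lactating libraries had 0 counts. In the libraries of these 6 animals a count of 0 allows a level of up to 0.0661 to 0.165 CPM as virgins and 0.0547 to 0.135 CPM in lactation (3 counts, counting error only). In the other 9 animals the level was 10.1 through 37.4 to 121 CPM in the virgin and 22.3 through 33.6 to 61.0 CPM in the lactating libraries.

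Within these 9 animals the virgin and lactating levels of BOLA-DQA5 had a rho of 0.12, and within the 6 low animals, near 0 counts, one of -0.53. The counted locus is also listed as BOLA-DQA2, spans 139051 bases and is 11.7 times as long as the RefSeq gene, so counts of neighbouring DQ genes may be joined or lost there. Of 14 genes of the MHC presentation list that passed the minimum, 2 (14.3%) were among the 100, against 1.31% of all genes. The median rho of the list was 0.29, with 0.22 for the invariant chain gene CD74. The other gene of this list among the 100 was ERAP2, an aminopeptidase that trims peptides for class I molecules. It ranged from 6.10 through 12.5 to 52.5 CPM in the virgin and from 16.7 through 23.4 to 39.1 CPM in the lactating libraries (rho 0.78), with no gap of the kind described.

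PTPRT, a receptor-type tyrosine phosphatase, was low in 8 and high in 7 animals. The low animals had 4.72 to 16.5 CPM in the virgin and 4.54 to 8.11 CPM in the lactating libraries. The high animals had 76.8 through 128 to 437 CPM and 31.8 through 61.2 to 108 CPM. The classes did not overlap in either stage. Within them rho was 0.48 for the 8 low and 0.11 for the 7 high animals. PTPRT was lower in lactation in 15 of 15 animals (log2 fold change -1.35 ± 0.65, SE), which did not pass the edgeR quasi-likelihood test without the animal as a term (adjusted p = 0.0777) and passed with it (adjusted p = 2.33e-05).

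The 6 genes without a symbol are named here by their identifiers, 5 of them after their values were seen. ENSBTAG00000020620, counted over 1314 bases, was at 1.42 to 6.002 CPM in 7 and 61.5 to 377 CPM in 8 animals as virgins, and at 0.538 to 1.04 and 38.4 to 87.9 CPM in lactation. ENSBTAG00000047547 was at 0.403 to 1.12 CPM in 5 and 14.6 to 27.4 CPM in 10 animals as virgins, and at 0.203 to 1.26 and 14.9 to 27.6 CPM in lactation. In both genes the gap between the classes was over 3 on the log2 scale at each stage.

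ENSBTAG00000047008 and ENSBTAG00000006383 each had 6 low and 9 high animals, and 5 animals were low for both. ENSBTAG00000047008 had 0.696 to 2.48 against 19.3 to 49.4 CPM in the virgin libraries and 0.942 to 1.71 against 21.3 to 60.5 CPM in the lactating ones. ENSBTAG00000006383 had 7.07 to 20.4 against 68.6 to 137 CPM and 4.22 to 9.17 against 82.1 to 128 CPM. ENSBTAG00000047383, counted over 388296 bases, had 4 low animals at 1.21 to 5.47 CPM and 11 high animals at 18.3 to 114 CPM as virgins, with 2.39 to 5.52 and 18.7 to 116 CPM in lactation.

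ENSBTAG00000047029, counted over 482 bases, had the second highest rho of all genes. Its lowest level was 0.513 CPM in the virgin and 0.689 CPM in the lactating libraries, and the levels of the other 14 animals were 5.79 to 72.8 and 5.48 to 50.7 CPM. Within these 14 animals rho was 0.88, so here the order was also kept inside the high class. In the other 5 unnamed genes rho within a class of at least 6 animals was -0.54 to 0.50.

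The low animals were not the same from gene to gene. BOLA-DQA5 and PTPRT shared 4 of the 6 and 8 low animals, BOLA-DQA5 and ENSBTAG00000047008 shared 2 of 6, and ENSBTAG00000047029 shared none with PTPRT. The largest sharing was 5 animals, between ENSBTAG00000047008 and each of ENSBTAG00000006383 and ENSBTAG00000020620. No genotypes are given in the labels, and whether inherited variants, copy number or read alignment to divergent alleles move with these classes was not tested.

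**Figure D3:**
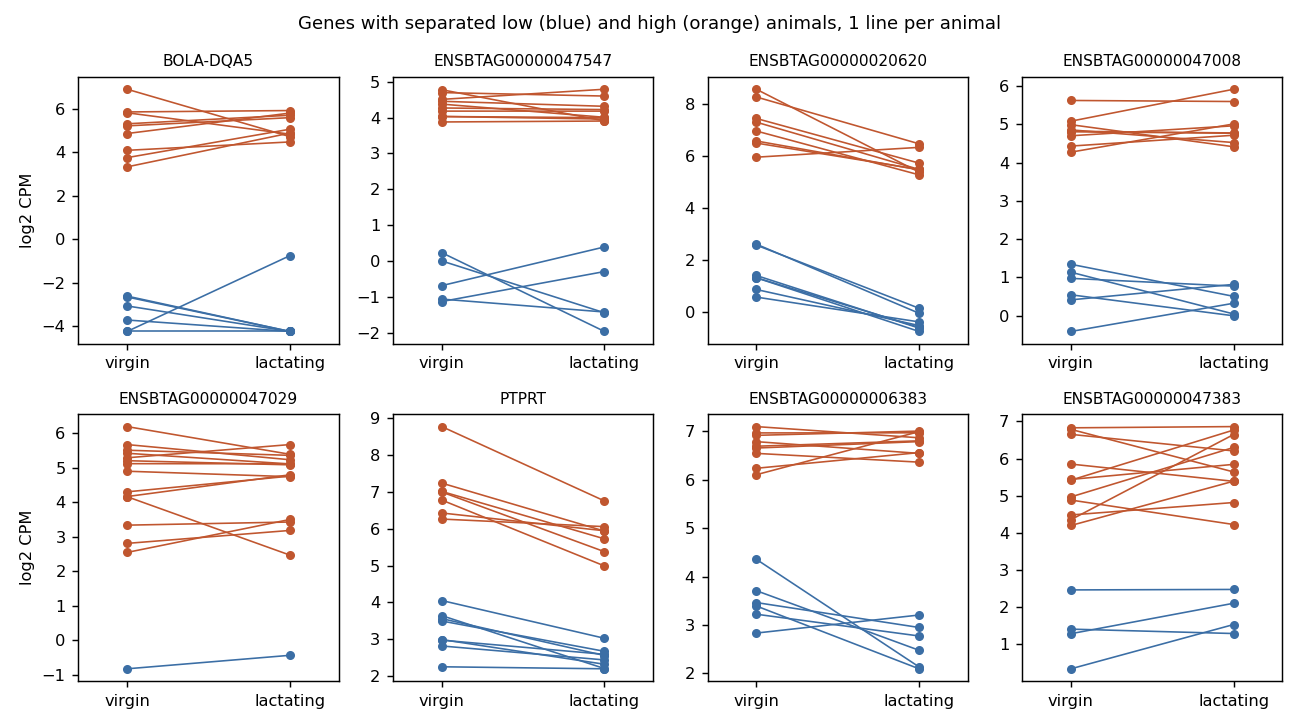
Log2 CPM (vertical axis, with a prior count) of the 8 genes whose animals fall into separate low (blue) and high (orange) classes, at the virgin and lactating stages (horizontal axis), with 1 line per animal. In each panel no line crosses between the classes, and in the PTPRT panel 15 of 15 lines go down.

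A symbol was missing for 12 of the 100 genes, which is 4.98% of the 241 such genes that passed the minimum, against 1.31% of all genes. Short loci were common among them: 8 of the 12 were counted over fewer than 3000 bases, against 42 of the 241. Their spread between animals was wide, with a median SD of log2 CPM of 1.65 in the virgin and 1.78 in the lactating libraries. None could be named from the RefSeq table.

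The spread of the 100 genes was in general moderate and a few were very wide. Their median SD of log2 CPM over 15 animals was 0.61 in the virgin and 0.36 in the lactating libraries, against 0.50 and 0.29 for all 7651 genes. The SD of the animals' lactating minus virgin difference was 0.49 for the 100 genes and 0.53 for all genes. In 81 of the 100 genes the virgin libraries had the larger SD, as in 88.2% of all genes. Levels were ordinary, with median mean CPM of 24.5 and 25.5 in the virgin and lactating libraries against 27.1 and 26.0 for all genes.

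The widest spread belonged to BOLA-DQA5, with an SD of 4.40 in the virgin and 4.61 in the lactating libraries, and to 4 of the separated genes without a symbol. CLDN11, a tight junction claudin, varied less than these but still widely, without a gap of that kind. It ranged from 0.992 through 16.0 to 89.7 CPM in the virgin and from 1.20 through 11.2 to 97.0 CPM in the lactating libraries (rho 0.76). An SD of 1 or more in both stages was found in 15 of the 100 genes and in 93 (1.22%) of all genes. The narrowest were the cohesin subunit RAD21, the ubiquitin ligase SIAH1, the corepressor TLE3, the glucosylceramidase GBA2 and the splicing factor SMU1. RAD21 ranged from 69.96 through 116 to 139 CPM in the virgin and from 93.9 through 116 to 148 CPM in the lactating libraries, with a rho of 0.78.

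A wide spread went with a place among the 100 but did not alone give it. Of 24 genes with an SD of 1.5 or more in both stages 9 were among the 100, against 1.31% of all 7651 genes. The median rho of the 24 was 0.51, against 0.22 for all genes. The caseins had some of the widest spreads and were not among the 100: CSN2 had an SD of 3.95 in the virgin and 3.12 in the lactating libraries with a rho of 0.29, and CSN1S1 had SDs of 3.76 and 3.01 with a rho of 0.21. The acute-phase gene HP had SDs of 2.05 and 2.18 with a rho of 0.21. The summed level of 15 milk protein genes had a rho of -0.06 between the stages.

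**Figure D4:**
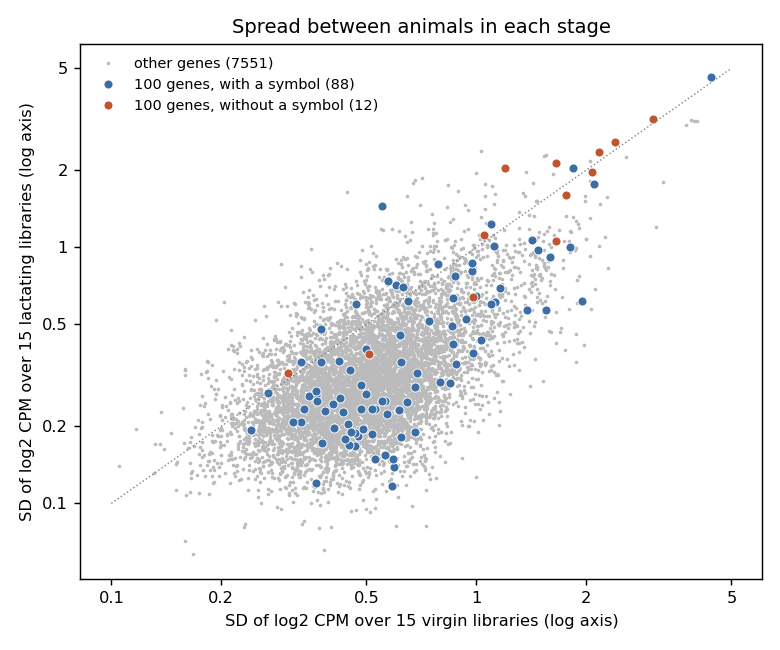
SD of log2 CPM over 15 virgin (horizontal axis) against 15 lactating libraries (vertical axis), both on log scales, with 1 point per gene. Grey points are the 7551 other genes, blue points the 88 named and orange points the 12 unnamed genes of the 100, and the dotted line marks equal SDs. Most of the 100 genes lie within the grey cloud and below the line, and several unnamed genes and BOLA-DQA5 lie far to the upper right.

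The 100 genes were not 100 independent items, because some pairs of them moved together over the animals, somewhat more often than pairs of all genes. Among the 4950 pairs of the 100 genes, 6.02% had an absolute rho over 0.8 in the virgin and 2.16% in the lactating libraries, against 3.70% and 1.75% of pairs of all genes. Grouping by the mean of the virgin and lactating rho, with a limit of 0.45 chosen after the values were seen, put 76 genes in 6 sets of at least 5. No such grouping of other genes is given here for comparison.

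The largest set held 30 genes. It included SLC30A5, PPP4R3B, SNX16, CHORDC1, DIS3, ZNF583, CENPC, the nuclear pore protein NDC1, RAD21, the polycomb protein BMI1, the chaperonin subunit CCT8 and SIAH1. In every gene of the set but ZNF583, the lowest virgin level was in the same library. In ZNF148 the log2 CPM was 3.62 there and 5.12 or more in the other virgin libraries. The virgin spread thus rested partly on that library. It was also the lowest virgin library in some of the 100 genes outside the set, such as SLC39A10 and PTP4A1. The set had a median SD of 0.53 in the virgin and 0.20 in the lactating libraries, against 0.50 and 0.29 for all 7651 genes. In the virgin libraries its genes followed the first principal component of all genes (median absolute rho 0.87), the summed level of 17 luminal markers (median rho -0.78) and the TMM factor (0.63). In the lactating libraries the same 3 values were 0.38, 0.37 and 0.25. None of the 30 stayed among the 100 highest when TMM factors were not used, where the median rho of the set was 0.39, or when the first principal component of each stage had been removed (median rho 0.19). The part of library composition in the kept order of this set was not tested.

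The second set held 13 genes, most of them of endothelium, matrix and growth factors, with other roles for ABCG1, CYP1A1, TSHZ3 and MFGE8. CDH5 and FLT1, an adhesion molecule and a VEGF receptor of endothelial cells, were in it together with the integrin chain ITGA5, the growth factors IGF2 and FGF7, the hyaluronan synthase HAS2, the basement membrane proteins NID2 and HSPG2, the matrix protein TNXB, the transcription factor TSHZ3, the sterol exporter ABCG1, CYP1A1 and MFGE8. Its median SD was 1.10 in the virgin and 0.77 in the lactating libraries. The median rho of the set was 0.75 as ranked, 0.56 without TMM factors and 0.36 with the first principal component removed. IGF2 ranged from 49.8 through 162 to 743 CPM in the virgin and from 108 through 297 to 433 CPM in the lactating libraries (rho 0.78). Its counted locus is also listed as a microRNA that lies in it.

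Beside the second set, summed markers of several cell types moved with its genes. The summed level of 14 endothelial markers outside the 100 genes was 27.2 to 566 CPM in the virgin and 193 to 1445 CPM in the lactating libraries, and genes of the set followed it with a median rho of 0.80 and 0.82. CLDN5, EGFL7, SOX17 and SOX18 were at 0 counts in at least 1 virgin library and none of the 14 was at 0 in a lactating one. The sum of 8 adipocyte markers was 11.7 to 194 and 48.3 to 1838 CPM, none of the 8 was at 0 counts in any library, and the genes of the set followed it with a median rho of 0.81 and 0.70. In the virgin libraries the set also followed macrophage and monocyte markers (median rho 0.65, and 0.40 in lactation) and fibroblast markers (0.57 and 0.17). The sum of 13 fibroblast markers was 397 through 1119 to 22189 CPM in the virgin and 601 to 1834 CPM in the lactating libraries. In the virgin libraries the luminal sum was 3489 to 13088 CPM, so the highest fibroblast sum was above it. In the lactating libraries it followed basal markers (0.77, and 0.30 in the virgin), milk proteins (0.71 and -0.11) and, in the opposite direction, luminal markers (-0.72 and -0.24). The part of these cells in the set's kept order was not tested.

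The endothelial sum itself was correlated between stages (Pearson's r 0.56, Spearman's rho 0.61, adjusted p = 0.148 for both, permutation tests with 100000 resamples), as was the adipocyte sum (0.58 and 0.69, adjusted p = 0.148 and 0.105). In this family of 10 measures with 20 p-values adjusted together none passed 0.05, and r was 0.35 and 0.47 without the 2 animals farthest from the median virgin level. All 9 endothelial markers that passed the minimum had a rho of 0.43 or more, with a median of 0.56, and 2 of them, CDH5 and FLT1, were among the 100. For those outside the 100, rho was 0.09 (EMCN) to 0.56 (PLVAP) without TMM factors. It was -0.58 (EMCN) to 0.31 (PLVAP) with the first principal component of each stage removed. Among epithelial markers the median rho was 0.03 for 16 luminal markers, 0.05 for 11 basal markers and -0.19 for 8 keratins. None of these was among the 100, and at the share over all genes (1.31%) fewer than 1 would be.

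The third set, of 11 genes, contained CALCOCO1, AIFM2, SLC29A3, the haem synthesis enzyme FECH, GBA2 and ENSBTAG00000020620, and in the virgin libraries went with the luminal sum in the direction opposite to the first set (median rho 0.76, and -0.01 in the lactating libraries). The fourth held 10 genes, among them PXDC1, the adenosine deaminase ADA and PDCD7. The fifth held 7, among them SDCCAG3, SLC7A11, the serine synthesis enzyme PSPH and the mitochondrial ribosomal protein MRPL20, and the sixth 5, among them BOLA-DQA5 and CLDN11. Of the 8 separated genes 7 stayed among the 100 highest with the first component removed, with rho 0.70 to 0.89, and the other had a rho of 0.63.

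**Figure D5:**
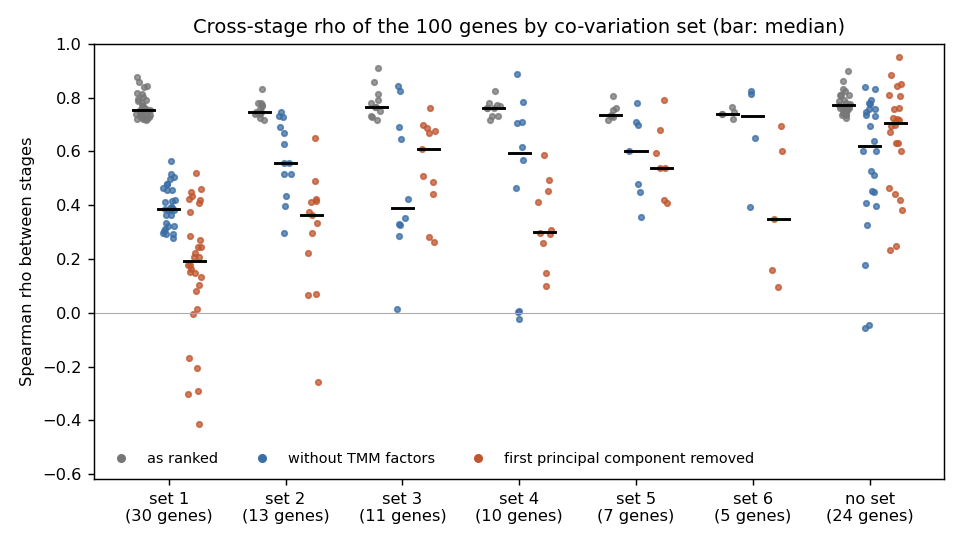
Spearman's rho between stages (vertical axis) of the 100 genes by co-variation set (horizontal axis), as ranked (grey), without TMM factors (blue) and with the first principal component of each stage removed (orange), with 1 point per gene and a bar at the median. In the set of 30 genes the median goes from 0.76 to 0.39 and 0.19, and in the 24 genes outside the sets it goes from 0.77 to 0.62 and 0.71.

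Only 14 of the 100 genes were among the 100 highest both without TMM factors and with the first component removed. They were 7 of the separated genes, 3 other genes without a symbol, ERAP2, CYP1A1, PON3 and CEACAM19. The list of enzymes of xenobiotic and glutathione metabolism held 46 genes, and 3 of them (6.52%) were among the 100, against 1.31% of all genes. CYP1A1, a monooxygenase induced through the aryl hydrocarbon receptor, ranged from 5.32 through 27.5 to 58.2 CPM in the virgin and from 13.5 through 54.6 to 141 CPM in the lactating libraries (rho 0.75). PON3, a lactonase, ranged from 3.78 through 21.6 to 82.3 and from 1.90 through 9.74 to 21.2 CPM (rho 0.74), and ALDH5A1, which degrades succinic semialdehyde, had a rho of 0.79.

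Over all 7651 genes 1.31% were among the 100, so a count of 0 in lists of this length is close to that share. Of 9 genes known for common expression variants in human tissues, ERAP2 and PSPH (22.2% of the list) were among them, and the list's median rho was 0.40. PSPH ranged from 1.28 through 4.43 to 28.4 CPM in the virgin and from 3.74 through 10.5 to 13.9 CPM in the lactating libraries. None of 88 cytosolic ribosomal protein genes (median rho 0.13), 24 interferon-stimulated genes (0.03), 29 collagens and laminins (0.37), 11 fibroblast markers (0.37), 11 histone genes (0.15) or 8 genes of oestrogen and progesterone sensing (0.08) was among the 100. Of 41 mitochondrial ribosomal protein genes 1 was, MRPL20. The lists were chosen with earlier results of these data known.

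Of the 100 genes, 84 could be placed in the RefSeq gene order by symbol, and no pair of these lay within 3 protein-coding genes of each other. The 12 genes without a symbol were not placed, so whether any of them are neighbours is not known. The counted locus was over 2 times the RefSeq span in 4 of these 84, BMI1, BOLA-DQA5, SIAH1 and PDCD7, against 8.96% of 7211 genes, so in these 4 counts of other genes may be included.

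Between stages, 15 of the 100 genes rose in lactation, 19 fell and 66 did not pass the test. These shares were below the background: of the 7651 genes 21.5% rose, 29.1% fell and 50.7% passed in either direction (edgeR quasi-likelihood test over 13143 rows, Benjamini-Hochberg adjusted p under 0.05). Stage was the only term of this test, which passes fewer genes when levels correlate within animals. The 100 genes were chosen for that correlation, so their lower shares are a description only. The median log2 fold change, lactating minus virgin, was 0.02 for the 100 genes and -0.08 for the 7651 genes. With the animal as a block 26 of the 100 rose and 21 fell, and of the 13143 rows 3666 rose and 3656 fell. That fit draws on the same correlation between an animal's libraries that chose the genes. Without TMM factors 5 of the 100 rose and 54 fell.

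The largest rise was that of MFGE8, a protein of milk fat globules that also serves in the uptake of dying cells. It was at 46.6 through 68.7 to 200.5 CPM in the virgin and 150 through 959 to 2074 CPM in the lactating libraries, and rose in 15 of 15 animals (log2 fold change 3.28 ± 0.39, SE, adjusted p = 5.1e-08, edgeR). The virgin and lactating ranges overlapped although every animal rose. CDH5 was at 1.22 through 21.5 to 97.4 CPM and then 38.3 through 149 to 282 CPM and rose in 15 of 15 animals (2.40 ± 0.41, adjusted p = 1.37e-05). FLT1 rose by 1.65 ± 0.38 (adjusted p = 0.000499), ABCG1 by 1.53 ± 0.29 (adjusted p = 4.78e-05) and CYP1A1 by 1.23 ± 0.37 (adjusted p = 0.00605) on the log2 scale.

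These 5 rises were all in the second set, beside which the summed endothelial markers had a median of 105 CPM in the virgin and 640 CPM in the lactating libraries, and the summed adipocyte markers 31.9 and 663 CPM. Macrophage and monocyte markers went from a median of 38.8 to 264 CPM, lymphocyte markers from 27.8 to 81.8 CPM and milk proteins from 568 to 208600 CPM. Their part in these rises was not tested. Without TMM factors, which moved the median log2 fold change of all tested rows from -0.08 to -0.55, the rise of CYP1A1 did not pass (0.65, adjusted p = 0.112), and those of MFGE8, CDH5, FLT1 and ABCG1 still passed.

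Of the 5 largest falls that passed the test without the animal as a term, 4 were in enzymes and transporters. ENSBTAG00000020620 (-1.68 ± 0.87, lower in 14 of 15 animals) and PTPRT had falls of like size that did not pass this test and passed with the animal as a block (adjusted p = 1.48e-06 for the former, edgeR). PON3 fell in 15 of 15 animals (log2 fold change -1.45 ± 0.35, adjusted p = 0.000773, edgeR). SLC39A10 fell in 14 of 15 (-1.24 ± 0.14, adjusted p = 1.25e-08), PIGW in 15 of 15 (-1.14 ± 0.19, adjusted p = 9.88e-06) and NDC1 in 13 of 15 (-0.94 ± 0.18, adjusted p = 6.41e-05). SLC7A11 was lower on average (-1.41 ± 0.47, adjusted p = 0.0116) but in 10 of 15 animals only, and did not pass with the animal as a block (-0.54, adjusted p = 0.230), by limma-voom (-0.57, adjusted p = 0.364) or without the 5 animals for which the title of the virgin library ends in a letter (-1.34, adjusted p = 0.0637). SLC30A5 fell by 0.69 ± 0.14 on the log2 scale (adjusted p = 9.86e-05).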

How the data were processed

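Poly-A RNA of mammary epithelial organoids was sequenced from strand-specific libraries, per the labels' protocols. The authors deposited whole-number read counts per gene, with no normalization, and a table of RPKM values. HISAT2 2.0, StringTie 1.3.2, featureCounts 1.5.2, SAMtools, Subread, edgeR and build UMD3.1 are named in the submitters' processing notes, with no settings. The deposited RPKM table also held the authors' log2 fold changes and p-values, which were not used.

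Rows whose counts were the same in all libraries were merged, leaving 13407 loci of 14084 rows. The deposited RPKM values served only to recover each locus length from count over RPKM. They came out whole to within 1.76e-07. RefSeq gene spans and gene order came from a table of another build, so no coordinates or sequences are printed.

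Counts were analysed with edgeR 4.0.16 in R 4.3.3: 13143 rows passed filterByExpr at its minimum count of 10 and minimum total of 15, followed by TMM factors, glmQLFit and glmQLFTest on 30 libraries with stage as the only term. Adjusted p-values under 0.05 were called. Log2 CPM used a prior count of 2. Ties in rho were broken by Pearson's r. A TMM factor is a library's scale relative to the others after trimming the genes that differ most. The first principal component explained 36.5% of the variance of the virgin and 45.7% of that of the lactating libraries. The steps were tested on simulated data.

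Replicate numbers in the titles are the animals, per the series design, and pair the samples. After removal of stage means an animal's 2 libraries correlated at -0.04 to 0.46 (mean 0.24), against -0.02 with those of other animals, and in 12 of 15 animals at over 0.1. Replicates are separate animals.

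The 100 genes and the 23 gene lists were chosen with earlier results of these data known. Named genes were the 20 highest in rho, the 5 widest and 5 narrowest, the separated genes, the 5 largest called rises and falls, up to 4 genes per list and the edge of the list. Roles, sets and other named genes were chosen after their values were seen. Alternatives were other scalings (DESeq2 1.42.0, none), filters, correlation measures, limma-voom (limma 3.58.1) and left-out animals.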

Additional observations from a re-analysis of the deposited data

How the results depend on the processing

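Which genes made up the 100 depended on the settings. Of the 100, 32 stayed among the highest without TMM factors (median rho of the 100 genes 0.48), 57 with a minimum of 1 CPM, 61 by Pearson's r, 24 with the first principal component removed (median rho 0.42) and 34 without the 5 animals for which the title of the virgin library ends in a letter (median rho 0.76 over 10 animals). Without the 2 animals farthest from the median virgin level of each gene, an alternative added after seeing the data, 35 stayed (median rho 0.69). With 1 animal left out 44 to 79 stayed, with 62, 66 and 44 when the animals of libraries L468, L479 and L581 were left out. All 100 kept a rho of at least 0.65 whichever animal was left out, and 29 stayed among the 100 highest each time. DESeq2 size factors kept 82, every row 95, a minimum of 10 CPM 77 and a prior count of 0.5 kept 99.

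The 8 separated genes among the 100 had gaps of at least 1.73 in both stages, so the limits of 0.5 and 1.5 that were tried could not drop any of them. Over all genes 33 were separated with a gap over 0.5 and 23 with a minimum of 1 CPM, the latter added after seeing the data. With the animal as a replicate block 26 of the 100 rose. Without TMM factors 5 rose and 54 fell, and over all rows 1336 rose and 7581 fell. Without those 5 animals 11 of the 100 rose and 8 fell, and over all rows 2269 rose and 2698 fell. With 1 animal left out 13 to 16 of the 100 rose and 16 to 22 fell, and over all rows 2866 to 3445 rose and 3722 to 4022 fell. The cause of these changes was not tested. The block ended the call of SLC7A11 among the named changes and no other. Counts limit the low class of BOLA-DQA5, where libraries held 0 to 12 counts.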

Other observations

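Among genes of lower level, the separation into the same low and high animals at both stages was also seen. With a minimum mean of 1 CPM in both stages 10613 genes passed, and 23 were separated, 11 of them below the minimum of 5 CPM in at least 1 stage. Of these 11, 7 had only an Ensembl identifier and 4 had a symbol, CITED4, PLN, CXorf57 and ACSM5. In each of these 4 a single animal stood apart from the rest, above them in CITED4 and below them in the others. Their rho was -0.24, -0.01, 0.58 and 0.19. ENSBTAG00000001858 was at up to 0.521 CPM in 6 animals and at 3.84 to 11.8 CPM in the other 9 as virgins, and at up to 0.314 and 3.66 to 10.8 CPM in lactation. ENSBTAG00000004415 was at up to 0.607 CPM in 6 animals and at 2.61 to 12.6 CPM in the others as virgins, and at up to 1.02 and 2.42 to 13.3 CPM in lactation. These genes were chosen after their values were seen.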
